A study of Mus musculus with 10 samples.

Results

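Transcripts of mouse oocytes were measured by RNA sequencing, and the genes described here are 8 transcription regulators that act in the female germline: Nobox, Figla, Lhx8, Sohlh1, Sohlh2, Sebox, Taf4b and Tbpl2. They were taken by gene symbol from a count table of 18493 genes, in which all 8 were found, and they were set against 6 genes named as their targets, the zona pellucida genes Zp1, Zp2 and Zp3 and the growth factor genes Gdf9, Bmp15 and Fgf8. The oocytes, with the ovary as labelled source, fell into 3 groups: oocytes with spermidine, labelled as a rescue (n = 4 libraries), aged oocytes (n = 3) and young oocytes (n = 3). The labels give no strain, genotype, age in weeks, oocyte stage or spermidine dose. They give the spermidine group no age of its own, although the study's design describes it as a rescue of aged oocytes. Nor do they say how many oocytes or animals stand behind a library. P-values therefore rest on the variation among these libraries, and that variation may be technical.

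Oocyte growth depends on a small set of germ cell transcription factors. Sohlh1 and Sohlh2 are basic helix-loop-helix proteins that act early, before and during the activation of primordial follicles, and Lhx8, a LIM homeobox protein, and Nobox, an oocyte homeobox protein, are needed for follicles to develop further. Figla, another basic helix-loop-helix protein, is required for primordial follicles to form and activates the genes of the zona pellucida, the glycoprotein coat of the egg. Sebox is a homeobox gene with a maternal effect on the early embryo. Taf4b is a gonad-enriched subunit of the general transcription factor TFIID, and Tbpl2 is a paralog of the TATA-binding protein that takes its place in growing mouse oocytes.

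The sequences upstream of the start site are shown for 4 members that changed in at least 1 comparison, for Nobox, and for 1 target of each kind, because these factors act through short DNA motifs in such regions. RefSeq windows on build GRCm38.p6 were matched by symbol for 7 of the 8 members and for 2 of the 6 targets, Zp3 and Bmp15. Taf4b, Zp1, Zp2, Gdf9 and Fgf8 were not matched. Each line gives the 250 bases before the annotated start, 5′ to 3′ on the strand of the gene. Capitals mark matches on either strand to CANNTG (the E-box that basic helix-loop-helix proteins bind), to TAATTA or TAATTG (a homeobox core) and to TATAA, and no match overlapped another.
Sebox: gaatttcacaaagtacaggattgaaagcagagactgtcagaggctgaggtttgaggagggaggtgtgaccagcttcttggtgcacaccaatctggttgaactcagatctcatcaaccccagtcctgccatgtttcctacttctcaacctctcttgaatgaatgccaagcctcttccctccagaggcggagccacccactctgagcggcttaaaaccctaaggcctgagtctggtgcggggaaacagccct
Sohlh2: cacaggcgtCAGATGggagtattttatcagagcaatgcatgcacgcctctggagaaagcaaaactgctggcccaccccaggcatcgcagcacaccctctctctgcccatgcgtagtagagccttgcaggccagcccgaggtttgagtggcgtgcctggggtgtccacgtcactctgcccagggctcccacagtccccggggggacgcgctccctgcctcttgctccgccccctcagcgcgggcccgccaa
Figla: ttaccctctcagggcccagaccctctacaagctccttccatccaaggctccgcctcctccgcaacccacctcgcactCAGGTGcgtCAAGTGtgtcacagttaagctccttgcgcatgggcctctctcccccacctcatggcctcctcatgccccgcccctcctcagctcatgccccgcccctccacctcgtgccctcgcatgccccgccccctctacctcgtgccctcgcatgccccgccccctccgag
Tbpl2: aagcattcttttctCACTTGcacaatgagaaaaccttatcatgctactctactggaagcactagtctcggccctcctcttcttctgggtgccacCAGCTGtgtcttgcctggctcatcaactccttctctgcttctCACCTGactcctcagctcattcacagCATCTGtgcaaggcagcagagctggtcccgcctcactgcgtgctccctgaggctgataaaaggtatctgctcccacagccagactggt
Nobox: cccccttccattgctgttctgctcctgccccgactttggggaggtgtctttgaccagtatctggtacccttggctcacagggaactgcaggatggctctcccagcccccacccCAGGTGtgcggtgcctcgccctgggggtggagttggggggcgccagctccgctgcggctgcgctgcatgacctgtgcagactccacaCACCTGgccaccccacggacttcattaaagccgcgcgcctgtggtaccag
Zp3: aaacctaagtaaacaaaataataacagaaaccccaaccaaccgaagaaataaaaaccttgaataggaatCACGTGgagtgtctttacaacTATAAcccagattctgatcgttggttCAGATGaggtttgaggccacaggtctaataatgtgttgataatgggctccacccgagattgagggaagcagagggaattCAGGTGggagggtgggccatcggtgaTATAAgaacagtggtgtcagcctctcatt
Bmp15: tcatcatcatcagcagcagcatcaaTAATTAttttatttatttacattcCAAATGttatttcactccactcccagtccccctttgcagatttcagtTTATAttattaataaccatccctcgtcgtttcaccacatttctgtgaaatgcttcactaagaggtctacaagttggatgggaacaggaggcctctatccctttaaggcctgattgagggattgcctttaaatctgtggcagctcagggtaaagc

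E-boxes were found in all of these windows but that of Sebox, which held none of the motifs searched. Of 32851 promoter windows of the same length, 66.2% held an E-box, 11.3% the homeobox core and 22.8% TATAA. The window of Zp3 (chr5:135979855-135980104, plus strand) held 3 E-boxes, at -181, -134 and -55 from the start, and TATAA at -160 and -29. The window of Bmp15 (chrX:6320725-6320974, minus strand) held the only homeobox core among the 9 matched windows, at -225, with an E-box at -201 and TATAA at -154. Figla (chr6:86016941-86017190, plus strand) had E-boxes at -173 and -164, and Nobox (chr6:43309555-43309804, minus strand) at -137 and -50. Tbpl2 (chr2:24096596-24096845, minus strand) had 4 E-boxes and Sohlh2 (chr3:55181794-55182043, plus strand) had 1, at -241. The window of Sebox was chr11:78503263-78503512, plus strand. Of the members not printed, Sohlh1 had 5 E-boxes and Lhx8 had none. These coordinates are of GRCm38.p6, while the genome build named for the counts is mm9, and a match is a description of letters, not of binding.

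Libraries held 24222201 to 28730822 counts, and levels are given as CPM, the count per 1e6 of the library total after scaling by trimmed mean of M values (TMM). Such levels are relative to the other RNA of a library, so fewer transcripts per oocyte and a larger total of other transcripts cannot be told apart. The oocyte label was checked against 14 marker genes, the zona genes, Gdf9 and Bmp15 among them, whose levels summed to 21300 to 43600 CPM with spermidine, 32100 to 44300 CPM in aged and 31500 to 34500 CPM in young oocytes. The 14 granulosa and cumulus markers summed to 18.6 to 26.7 CPM over all libraries, and Amh had no count in aged or young oocytes. Cyp19a1 stood at 10.1 to 12.4 CPM with spermidine, 8.81 to 12 CPM in aged and 10.9 to 16.7 CPM in young oocytes. Of the 5 that could be tested, Fshr (log2 fold change 1.79, SE 0.41, edgeR adjusted p = 0.0125) and Nr5a2 (0.61, SE 0.20, edgeR adjusted p = 0.0482) were higher in aged than in young oocytes, where 17.8% of all tested genes passed. The median log2 fold change of the 5 was -0.43, and DESeq2 also called Hsd17b1 lower (-2.35, adjusted p = 0.0361). Nr5a2 was also higher with spermidine than in young oocytes (0.78, SE 0.18, edgeR adjusted p = 0.0297), where 5.36% of all tested genes passed. The part of other cells in the values of the 8 genes was not tested. Theca and stroma markers summed to 1.88 to 2.80 CPM with spermidine, 1.94 to 2.80 CPM in aged and 3.20 to 5.44 CPM in young oocytes, and blood and immune markers to 0.769 to 1.38, 0.661 to 11.8 and at most 26.9 CPM in the same groups. Trends with transcript length and GC content differed between libraries, and whether they are technical was not tested. Across genes, expression deviations correlated with the length of the transcript at 0.414 in aged replicate 1, at 0.150 in spermidine replicate 1, and at -0.204 to 0.058 in the other 8 libraries. The correlation with GC content was 0.379 and 0.259 in aged replicates 3 and 2, 0.196 in spermidine replicate 4, 0.115 in young replicate 2, and from -0.258 to -0.075 in the other 6. Genes are not independent replicates in such a correlation.

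The members spanned a wide range of levels per transcript length. In CPM per kb of the longest annotated transcript, Nobox stood highest of the 8, with a median of 224 and a range of 134 to 464 over the 10 libraries. Lhx8 (30.9 to 78.8), Sebox (16.9 to 60.0) and Figla (20.8 to 36.2) came next, and their ranges overlapped from each to the next. Tbpl2 ran from 6.65 to 15.8 CPM per kb, below every library of Figla. Sohlh2 (0.828 to 2.67) and Taf4b (0.781 to 2.68) overlapped each other, and Sohlh1 (0.0943 to 0.529) lay below both. Among the targets, Gdf9 reached 3204 to 7358 CPM per kb and Zp3 3108 to 4974, followed by Zp2, Zp1 and Bmp15, each of which was above Nobox within every library. Fgf8, at 19.3 to 51.0 CPM per kb, stood in the range of Sebox and Figla.

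**Figure D1:**
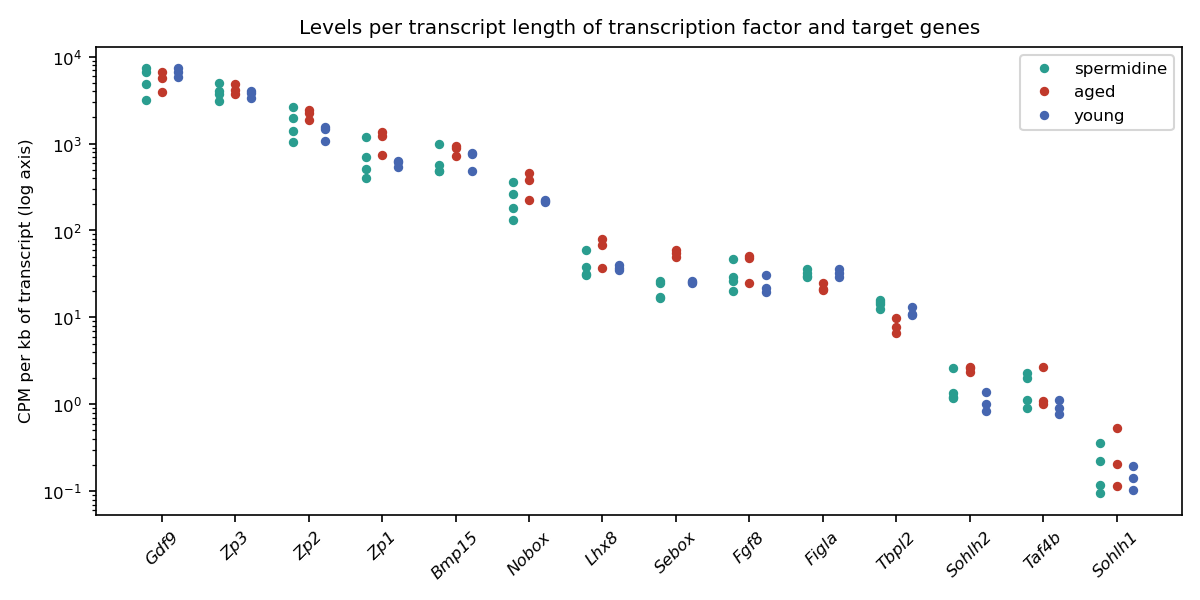
Levels per transcript length, in CPM per kb on a log axis, of the 8 transcription factor genes and their 6 targets, ordered by mean, with 1 point per library and colours for spermidine, aged and young oocytes. Gdf9 and the zona genes are at the top, Nobox is the most abundant of the factors, and Sohlh1 is lowest, at 0.0943 to 0.529 CPM per kb.

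Aged and young oocytes were compared to ask which transcripts differ with maternal age, and spermidine and aged oocytes to ask which differ with the polyamine. Differences were tested with edgeR's quasi-likelihood test in 1 fit over all 10 libraries, with Benjamini-Hochberg adjustment over 12315 genes and a threshold of 0.05. The filter on low counts kept 7 members and all 6 targets. Between aged and young oocytes 2 of the 7 tested members rose, Sohlh2 and Sebox, and 1 fell, Figla, where 17.8% of all tested genes passed (9.71% higher and 8.06% lower). Between spermidine and aged oocytes 1 fell, Sebox, and 1 rose, Tbpl2, where 4.86% of all tested genes passed (2.44% lower and 2.42% higher). DESeq2 called 4 of the 7 for aged minus young and 3 for spermidine minus aged, with 2793 and 1355 calls over all genes. Between spermidine and young oocytes edgeR and DESeq2 called 0 of 7 each, with 0 at an unadjusted p under 0.05, where 5.36% of all tested genes passed (3.44% higher and 1.92% lower). The median log2 fold change of the 7 was 0.72 for aged minus young, -0.59 for spermidine minus aged and 0.11 for spermidine minus young, beside 0.10, -0.03 and 0.04 over all tested genes. With scaling by total counts the medians over all genes were 0.24, 0.01 and 0.23, and the calls were 1236 higher and 405 lower, against 1196 and 993 with TMM, for aged minus young and 605 and 126, against 424 and 236, for spermidine minus young. For spermidine minus young the 95% intervals were -0.49 to 0.71 for Nobox, -0.43 to 0.63 for Lhx8, -0.03 to 1.13 for Sohlh2, -0.01 to 1.53 for Taf4b and -0.01 to 0.65 for Tbpl2, so differences of those sizes were not excluded. The comparisons share libraries, so their values are given side by side and are not independent.

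The number of members called rested on single libraries. For aged minus young it was 5 without aged replicate 1, and 1, Sebox, without young replicate 1 or young replicate 3. For spermidine minus aged it was 5 without spermidine replicate 4, and 1, again Sebox, without spermidine replicate 2, spermidine replicate 3, aged replicate 2 or aged replicate 3.

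**Figure D2:**
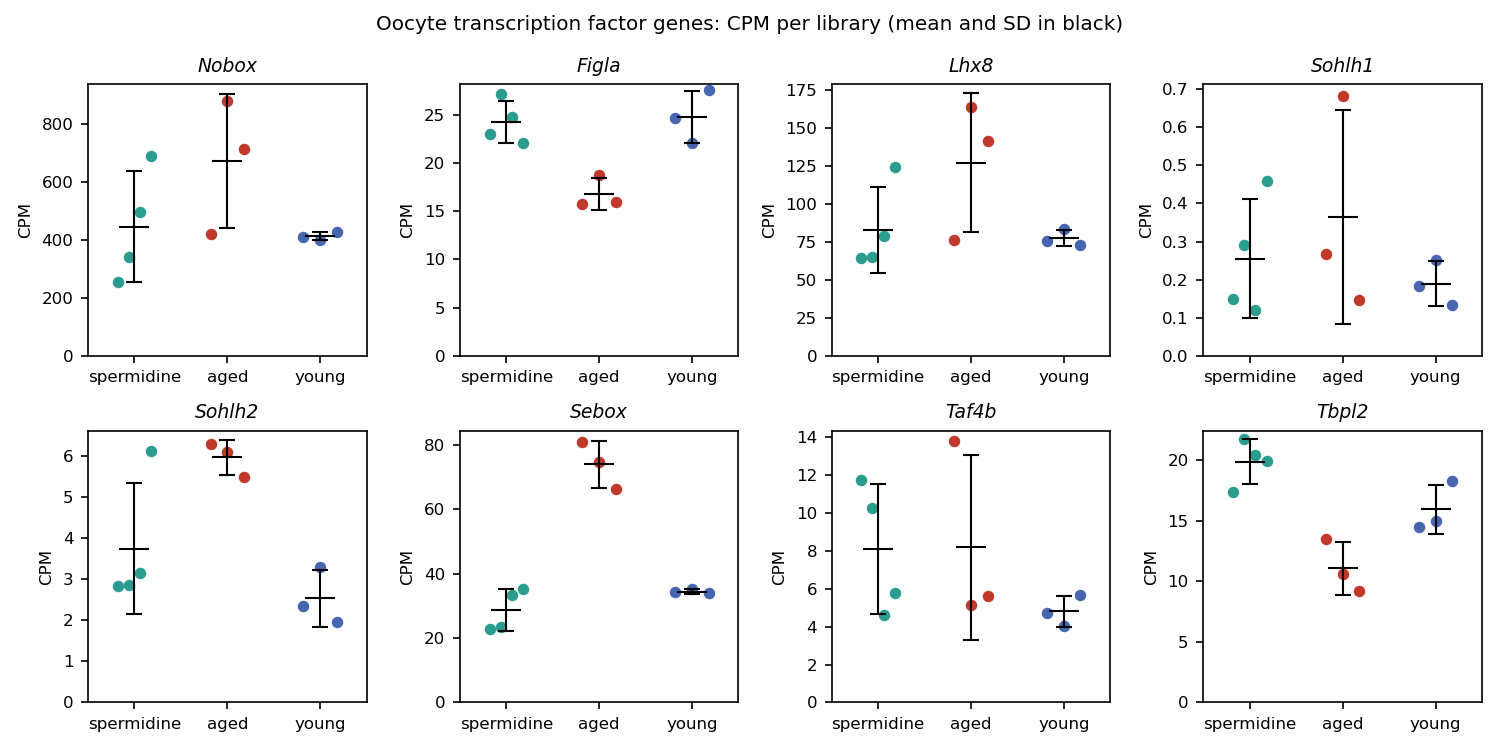
CPM of the 8 transcription factor genes in each of 10 libraries, with 1 panel per gene, 1 point per library, and the mean and SD in black for 4 spermidine, 3 aged and 3 young libraries. The 3 aged libraries of Sebox sit at 66.2 to 81.0 CPM, above all others, and those of Figla at 15.8 to 18.7 CPM, below all others.

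Sohlh1 and Sohlh2, which form heterodimers, were the least abundant of the early factors. Sohlh1 (Gene ID 227631) had 5, 8, 3 and 12 counts in the spermidine libraries, 8, 18 and 4 in the aged and 4, 7 and 3 in the young libraries. All groups overlapped, the gene was too low to be tested, and a library's value rests on at most 18 counts. The level of Sohlh2 (Gene ID 74434) was 2.83, 2.86, 3.16 and 6.14 CPM in spermidine replicates 1 to 4, against 6.31, 6.10 and 5.50 CPM in the aged replicates and 2.35, 3.30 and 1.96 CPM in the young replicates. Groups without overlap were found in 40.0% of tested genes (21.1% higher and 18.8% lower in aged oocytes), and for Sohlh2 the aged libraries lay above all young ones. Spermidine replicate 4 lay among the aged libraries while the other 3 lay between 2.83 and 3.16 CPM. Sohlh2 was 2.34-fold higher in aged than in young oocytes (log2 fold change 1.23, SE 0.31, edgeR adjusted p = 0.0196). The call was lost without young replicate 1 (adjusted p = 0.0899) or young replicate 3 (adjusted p = 0.0955). Between spermidine and aged oocytes the log2 fold change was -0.68 (SE 0.28, edgeR adjusted p = 0.164), and without spermidine replicate 4 it was -1.02 (adjusted p = 0.0183). Nearest to Sohlh2 in profile, by root mean square difference of centred log2 CPM over 10 libraries among 5282 genes of at least 10 CPM, were Tmbim1 (0.209), Pigq (0.218) and Clptm1 (0.219).

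Lhx8 and Nobox had closely similar profiles and wide spreads within groups. The level of Nobox (Gene ID 18291) was 253, 341, 496 and 690 CPM in the 4 spermidine replicates, against 422, 879 and 715 CPM in the aged replicates and 409, 400 and 428 CPM in the young replicates. The 3 young libraries lay close together, whereas 2 of the 3 aged libraries and spermidine replicate 4 were far above them and aged replicate 1 was at their level. Its log2 fold change was 0.70 for aged minus young (SE 0.33, edgeR adjusted p = 0.148) and -0.59 for spermidine minus aged (SE 0.30, edgeR adjusted p = 0.251), and the groups overlapped in both. The level of Lhx8 (Gene ID 16875) was 64.1, 64.8, 78.6 and 124 CPM with spermidine, against 76.0, 164 and 142 CPM in aged and 75.8, 83.2 and 72.9 CPM in young oocytes, with the same 3 libraries highest. Its log2 fold change was 0.72 for aged minus young (SE 0.29, edgeR adjusted p = 0.102) and -0.61 for spermidine minus aged (SE 0.27, edgeR adjusted p = 0.184). The log2 ratio of Lhx8 to Nobox averaged -2.38 ± 0.285 with spermidine (SD, n = 4), -2.41 ± 0.07 in aged and -2.42 ± 0.14 in young oocytes (SD, n = 3 each).

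The 3 libraries in which Nobox and Lhx8 were highest, aged replicates 2 and 3 and spermidine replicate 4, were also the 3 with the highest correlation of expression deviations with GC content. With each library corrected for transcript length and GC content, the aged minus young value of Nobox was 0.75 (edgeR adjusted p = 0.0573) and that of Lhx8 was 0.80, which passed (edgeR adjusted p = 0.0310). Without aged replicate 1 that of Nobox was 0.91 (edgeR adjusted p = 0.0718) and that of Lhx8 was 0.94 (adjusted p = 0.0218). Without aged replicate 2 they were 0.46 (edgeR adjusted p = 0.379) for Nobox and 0.49 (adjusted p = 0.287) for Lhx8. Leaving out aged replicate 1 and spermidine replicate 1 together, Nobox passed at 0.90 (adjusted p = 0.0172).

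Figla differed in the other direction. Its level (Gene ID 26910) was 23.0, 27.1, 24.7 and 22.1 CPM in the spermidine replicates, against 15.8, 18.7 and 15.9 CPM in the aged replicates and 24.7, 22.1 and 27.5 CPM in the young replicates. All 3 aged libraries lay below all 7 others. In 19.9% of tested genes the spermidine and aged groups did not overlap (11.4% higher and 8.49% lower with spermidine). Figla fell to 0.679 of its young level in aged oocytes (log2 fold change -0.56, SE 0.15, edgeR adjusted p = 0.0271) and missed the threshold for spermidine minus aged (0.53, SE 0.14, edgeR adjusted p = 0.0556). The spermidine minus aged value was 0.24 with the correction for length and GC content (adjusted p = 0.268), and it passed with DESeq2 (adjusted p = 0.00893), with a filter of 10 CPM in 3 libraries (0.0367) and without spermidine replicate 4 (0.0403). Its q in the authors' deposited table was 0.0433. For spermidine minus young its log2 fold change was -0.03, with a 95% interval of -0.31 to 0.25. Figla has the shortest transcript of the 14 genes, 759 bases. With the correction for length and GC content its aged minus young value was -0.11 and did not pass (edgeR adjusted p = 0.606), and with scaling by total counts it was -0.42 (adjusted p = 0.104). The call was also lost without aged replicate 3, young replicate 1 or young replicate 3 (adjusted p = 0.0707 to 0.0835). With no filter on low counts it was lost as well (-0.54, adjusted p = 0.0528), which makes 6 of 20 alternatives. By the same measure, the genes nearest to Figla in profile were Rabggtb, a subunit gene of Rab geranylgeranyl transferase (0.075), Ccdc127 (0.081) and Ube2v2, a ubiquitin-conjugating enzyme variant gene (0.084).

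Sebox had the smallest adjusted p of the 7 tested members in both comparisons with aged oocytes. Its level (Gene ID 18292) was 22.9, 23.3, 33.5 and 35.1 CPM in the spermidine replicates, against 81.0, 74.6 and 66.2 CPM in the aged replicates and 34.2, 35.3 and 33.9 CPM in the young replicates. The lowest aged library stood above every spermidine and young library, and the young libraries lay close together. Sebox rose 2.15-fold in aged against young oocytes (log2 fold change 1.10, SE 0.19, edgeR adjusted p = 0.00300). With spermidine it fell to 0.388 of the aged level (log2 fold change -1.37, SE 0.17, edgeR adjusted p = 0.00230). Both calls held in each of 20 alternatives, with values from 0.98 to 1.34 and from -1.55 to -1.17. Of the 12315 tested genes, 1.50% rose in aged against young and fell in spermidine against aged oocytes, and these comparisons share the aged libraries. The spermidine minus young value was -0.26, with a 95% interval of -0.60 to 0.07 and an edgeR adjusted p of 0.421. In the authors' deposited table the log2 fold changes of Sebox were 1.06 for aged against young and -1.38 for spermidine against aged. The genes of most similar profile, by the same measure, were Tcn2, a cobalamin carrier gene (0.233), Rictor, a subunit gene of mTOR complex 2 (0.244), and Ern1, a sensor gene of the unfolded protein response (0.248).

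**Figure D3:**
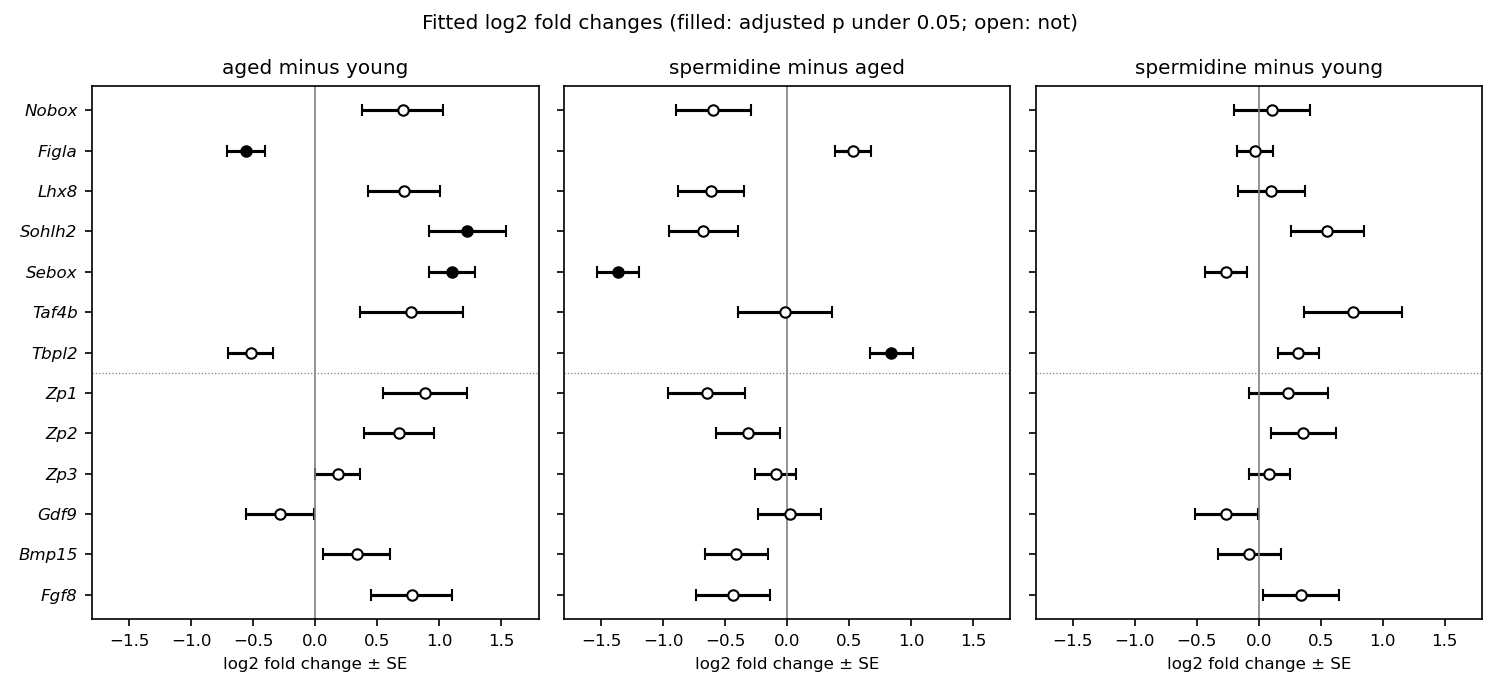
Fitted log2 fold changes with their SE for the 7 tested transcription factor genes (above the dotted line) and 6 targets (below it) in 3 comparisons, with filled points for an edgeR adjusted p under 0.05. Sebox is filled in both comparisons that involve aged oocytes, at 1.10 and -1.37, and no point is filled for spermidine minus young.

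Taf4b and Tbpl2 belong to the basal transcription machinery. The level of Taf4b (Gene ID 72504) was 11.7, 10.3, 4.62 and 5.79 CPM in the spermidine replicates, against 13.8, 5.15 and 5.61 CPM in the aged replicates and 4.70, 4.02 and 5.69 CPM in the young replicates. It was high in aged replicate 1 and in spermidine replicates 1 and 2 and similar in the other 7 libraries. Aged replicate 1 and spermidine replicate 1 are the libraries with the strongest positive length trend, spermidine replicate 2 is not (-0.086), and the Taf4b transcript, at 5149 bases, is the longest of the 14. Its log2 fold change was 0.77 for aged minus young (SE 0.42, edgeR adjusted p = 0.204) and 0.13 without aged replicate 1. With the correction for length and GC content it was 0.62 (adjusted p = 0.215). A processed pseudogene overlaps the annotated span of Taf4b, introns included, by 1349 bases, and its part in the Taf4b counts was not tested.

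Tbpl2 differed most between spermidine and aged oocytes. Its level (Gene ID 227606) was 17.4, 21.8, 20.5 and 19.9 CPM in the spermidine replicates, against 13.5, 10.6 and 9.17 CPM in the aged replicates and 14.5, 15.0 and 18.3 CPM in the young replicates. The aged libraries were below all others, and 3 of the 4 spermidine libraries were above all young ones. Tbpl2 was 1.79-fold higher with spermidine than in aged oocytes (log2 fold change 0.84, SE 0.17, edgeR adjusted p = 0.0225). The call was lost in 6 of 20 alternatives, among them the correction for length and GC content (0.50, adjusted p = 0.0712) and the omission of spermidine replicate 2, spermidine replicate 3, aged replicate 2 or aged replicate 3 (adjusted p = 0.0600 to 0.0918). For aged minus young its log2 fold change was -0.52 (SE 0.18, edgeR adjusted p = 0.0624), and with the correction it was -0.08. The aged minus young value passed in 4 of 20 alternatives. These were DESeq2 (-0.56, adjusted p = 0.0253) and the omission of aged replicate 1 (-0.73, adjusted p = 0.0175), spermidine replicate 1 (-0.56, adjusted p = 0.0452) or both (-0.73, adjusted p = 0.00886). Tbpl2 was near Figla in profile, with a root mean square difference of 0.236, and nearest to Ubxn2b (0.145), Znrf3 (0.161) and Ifi30 (0.167).

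Tbpl2 works with the general factor TFIIA, and among 5 genes of TATA-binding proteins and TFIIA the germ cell TFIIA gene Gtf2a1l differed in all 3 comparisons. It stood at 123, 152, 133 and 220 CPM with spermidine, against 84.6, 104 and 88.6 CPM in aged and 327, 369 and 298 CPM in young oocytes. No 2 groups overlapped, and in 21.0% of tested genes the spermidine and young groups did not (12.1% higher and 8.92% lower with spermidine). Gtf2a1l was lower in aged than in young oocytes (log2 fold change -1.84, SE 0.21, edgeR adjusted p = 0.000295) and lower with spermidine than in young oocytes (-1.08, SE 0.19, edgeR adjusted p = 0.00545). Both of these calls held in all 20 alternatives. It was higher with spermidine than in aged oocytes (0.77, SE 0.19, edgeR adjusted p = 0.0437), a call lost in 10 of 20 alternatives. These include the omission of any aged library, any young library, spermidine replicate 2 or spermidine replicate 3 (adjusted p = 0.0572 to 0.120). Of all tested genes, 1.52% fell in aged against young and rose in spermidine against aged oocytes. The general TFIIA genes Gtf2a1 and Gtf2a2 and the TATA-binding protein genes Tbp and Tbpl1 did not pass by edgeR in any comparison, while DESeq2 called Gtf2a2 for aged minus young (-0.56, adjusted p = 0.0257). Tbp averaged 86.6 CPM with spermidine, 94.4 CPM in aged and 105 CPM in young oocytes. The median log2 fold change of the 5 was -0.40 for aged minus young, 0.17 for spermidine minus aged and -0.27 for spermidine minus young.

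The zona pellucida genes lay nearer in profile to Nobox than to Figla. Without the correction for length and GC content, the root mean square difference to Nobox was 0.135 for Zp1, 0.306 for Zp2 and 0.353 for Zp3. That to Figla was 0.761, 0.617 and 0.387. The level of Zp1 was 782, 1012, 1367 and 2345 CPM in the spermidine replicates, against 1458, 2635 and 2385 CPM in the aged replicates and 1224, 1212 and 1066 CPM in the young replicates. All aged libraries were above all young ones, and the spermidine libraries ranged from below the young to within the aged. Its log2 fold change was 0.89 for aged minus young (SE 0.34, edgeR adjusted p = 0.0868) and -0.65 for spermidine minus aged (SE 0.31, edgeR adjusted p = 0.225). The aged minus young value passed in 6 of 20 alternatives, among them the correction for length and GC content (0.83, adjusted p = 0.0363), total count scaling and a fit to the 2 groups alone. In the authors' deposited table it had a q of 0.00559.

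The other zona genes had smaller fold changes for aged minus young. Zp2 stood at 2341, 3119, 4376 and 5863 CPM with spermidine, against 5002, 5430 and 4205 CPM in aged and 3430, 2418 and 3329 CPM in young oocytes. The aged libraries were all above the young ones, with a log2 fold change of 0.67 (SE 0.28, edgeR adjusted p = 0.111). It passed with total count scaling, a fit to the 2 groups alone and the correction for length and GC content (adjusted p = 0.0343 to 0.0397), and its q in the authors' deposited table was 0.0214. Zp3 stood at 4111, 4872, 5363 and 6581 CPM with spermidine, against 4874, 6418 and 5437 CPM in aged and 5294, 5070 and 4422 CPM in young oocytes. Its groups overlapped in every comparison, and the aged minus young value was 0.18, with a 95% interval of -0.17 to 0.53. Over the 6 targets 0 passed by edgeR and 0 by DESeq2 in each comparison, with 3 at an unadjusted p under 0.05 for aged minus young and 0 for the other 2.

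**Figure D4:**
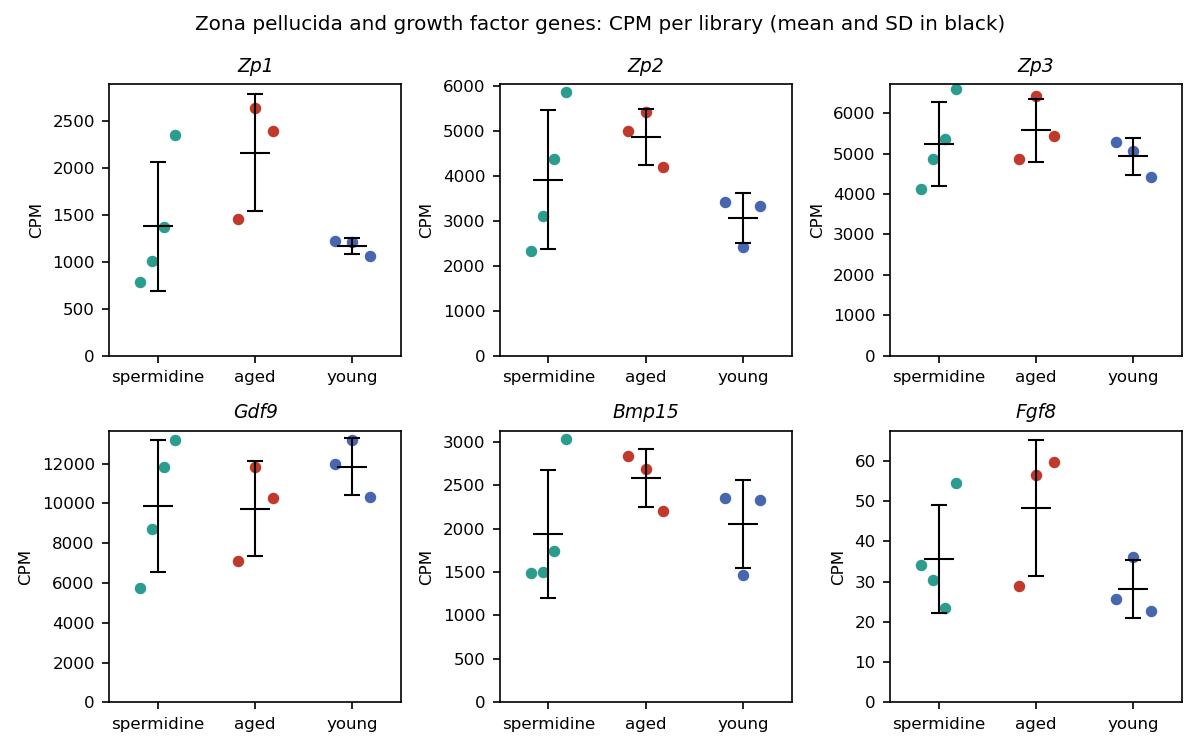
CPM of the zona pellucida genes Zp1, Zp2 and Zp3 and the growth factor genes Gdf9, Bmp15 and Fgf8 in each of 10 libraries, with the mean and SD in black for 4 spermidine, 3 aged and 3 young libraries. The aged libraries of Zp1 and Zp2 lie above the young ones, while those of the other 4 genes overlap them.

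The growth factor genes encode signals from the oocyte to the surrounding granulosa cells. The level of Gdf9 was 5745, 8697, 11830 and 13190 CPM in the spermidine replicates, against 7114, 11810 and 10250 CPM in the aged replicates and 11990, 13180 and 10340 CPM in the young replicates. It was lowest in spermidine replicate 1 and aged replicate 1, and its log2 fold change was -0.28 for aged minus young (SE 0.27, edgeR adjusted p = 0.478) and 0.02 for spermidine minus aged (SE 0.26, edgeR adjusted p = 0.971). Bmp15 stood at 1494, 1499, 1737 and 3030 CPM with spermidine, against 2838, 2689 and 2201 CPM in aged and 2353, 1462 and 2327 CPM in young oocytes. Its log2 fold change was 0.33 for aged minus young (SE 0.27, edgeR adjusted p = 0.400), and the groups overlapped. Fgf8 stood at 34.2, 30.4, 23.5 and 54.5 CPM with spermidine, against 28.9, 56.4 and 59.6 CPM in aged and 25.7, 36.2 and 22.6 CPM in young oocytes. It was highest in the same 3 libraries as Nobox and Lhx8, with an aged minus young value of 0.78 (SE 0.33, edgeR adjusted p = 0.114).

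Log2 ratios of a target gene to a member, which compare libraries and not the levels of different genes, set these profiles side by side. Whether the member of a pair regulates the target was not tested. The ratio of Zp1 to Nobox stayed between 1.32 and 1.79 in all 10 libraries, with means of 1.61 ± 0.13 with spermidine (SD, n = 4), 1.70 ± 0.11 in aged and 1.50 ± 0.16 in young oocytes (SD, n = 3 each). That of Gdf9 to Nobox was 4.26 to 4.67 with spermidine, 3.75 to 4.08 in aged and 4.59 to 5.04 in young oocytes, with the aged libraries below all others. For Bmp15 to Nobox the groups overlapped, at 1.81 to 2.56 with spermidine, 1.61 to 2.75 in aged and 1.87 to 2.53 in young oocytes. That of Zp1 to Figla was 5.09 to 6.73 with spermidine, 6.53 to 7.23 in aged and 5.28 to 5.78 in young oocytes, so that all aged libraries were above the young ones. The Zp2 to Figla ratio was 6.67 to 8.055 with spermidine, 8.048 to 8.31 in aged and 6.78 to 7.12 in young oocytes. Its aged libraries were above the young ones but overlapped the spermidine ones. That of Zp3 to Figla was 7.48 to 8.22 with spermidine, 8.27 to 8.42 in aged and 7.33 to 7.85 in young oocytes, with the aged libraries above all others. These ratios are without the correction for length and GC content, under which the aged minus young values were -0.11 for Figla and 0.28 for Zp3, against -0.56 and 0.18. Those of Nobox and Gdf9 were 0.754 and -0.205 with the correction, against 0.704 and -0.284. How often other gene pairs separate the groups in this way was not examined.

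**Figure D5:**
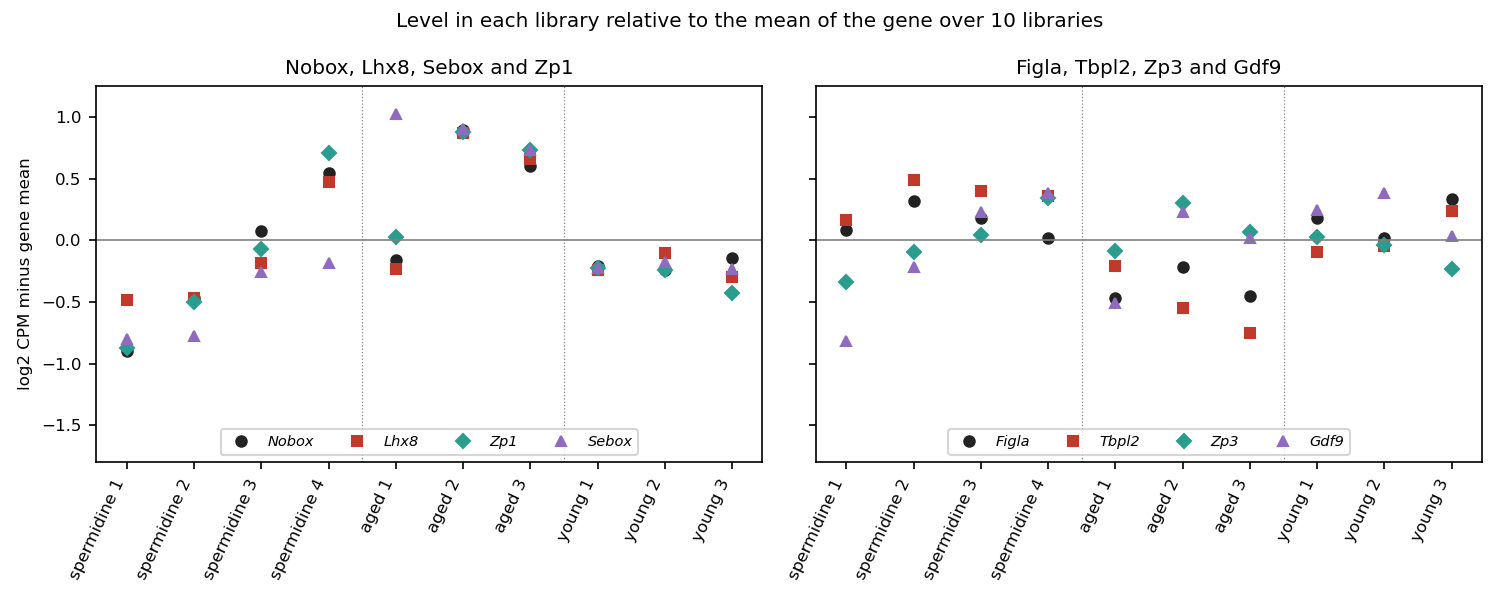
Log2 CPM of 8 genes in each of 10 libraries, centred on the mean of the gene, with Nobox, Lhx8, Zp1 and Sebox on the left and Figla, Tbpl2, Zp3 and Gdf9 on the right, and dotted lines between spermidine, aged and young libraries. Nobox, Lhx8 and Zp1 lie close together except in spermidine replicate 1, where Lhx8 is higher, Sebox parts from them in aged replicate 1 and spermidine replicate 4, and Figla and Tbpl2 are below their means in all 3 aged libraries.

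Other genes known to be reduced in mouse ovaries without Nobox or Figla were examined as a list. Of 18 tested, 2 rose and 0 fell by edgeR between aged and young oocytes, below the 17.8% called over all tested genes, with 7 at an unadjusted p under 0.05 and 3 called by DESeq2. These were the maternal-effect gene Nlrp5 (log2 fold change 1.03, SE 0.29, edgeR adjusted p = 0.0318) and the oocyte phospholipase gene Pla2g4c (0.86, SE 0.20, edgeR adjusted p = 0.0144). The list's median was 0.30, against 0.10 over all tested genes. Between spermidine and aged oocytes edgeR called 0 and DESeq2 2, with 5 at an unadjusted p under 0.05, and the first by p was Nlrp4a (-0.62, SE 0.18, edgeR adjusted p = 0.0638), whose reads may be divided with its near-identical family members. Between spermidine and young oocytes edgeR and DESeq2 called 0 each, with 3 at an unadjusted p under 0.05, the first being Oosp1 (-0.40, SE 0.16, edgeR adjusted p = 0.172).

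Genes of the TFIID complex, to which Taf4b belongs, moved both ways. Of 14 tested, Taf3 rose between aged and young oocytes (0.77, SE 0.17, edgeR adjusted p = 0.0112). Taf9 (-0.63, SE 0.13), Taf13 (-0.65, SE 0.15) and Taf12 (-0.52, SE 0.13) fell, with edgeR adjusted p-values of 0.00812, 0.0127 and 0.0171. Between spermidine and aged oocytes Taf3 (-0.74, SE 0.16) and Taf9b (-0.62, SE 0.16) fell, with edgeR adjusted p-values of 0.0255 and 0.0473. Between spermidine and young oocytes edgeR called 0 of 14 and DESeq2 2, with 3 at an unadjusted p under 0.05, and the first by p was Taf9 (-0.40, SE 0.12, edgeR adjusted p = 0.0774). EdgeR called 4, 2 and 0 of the 14 in these 3 comparisons, where 17.8%, 4.86% and 5.36% of all tested genes passed. Apart from DESeq2, the alternatives were not examined for the genes of this list. The medians of the 14 were 0.01, -0.08 and -0.17 in the same 3 comparisons, near those of all tested genes in the first 2. The paralog Taf4 averaged 12.2 CPM with spermidine, 10.7 CPM in aged and 10.8 CPM in young oocytes, and did not pass by edgeR or DESeq2 in any comparison.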

How the data were processed

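Oocyte RNA was copied to cDNA by SMART-seq2 with oligo dT priming and amplified, per the labels' protocols, and reads were sequenced on a DNBseq platform. The authors deposited 1 table of estimated counts per gene, not normalised by them, of which 15.85% to 16.65% per library were not whole, with their own log2 fold changes, p-values and q-values. Per the submitters' processing notes, the genome build was mm9 and the tools included RSEM 1.3.1, DESeq2 1.4.5 and Bowtie2 2.3.4.3, with no role or order given. An estimated count can split reads between close paralogs.

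Groups and replicate numbers were taken from sample titles. Expected counts were rounded and tested with edgeR 4.0.16 in R 4.3.3 (TMM scaling, filterByExpr, robust quasi-likelihood F test, Benjamini-Hochberg adjustment over 12315 genes, threshold 0.05), in 1 fit over 10 libraries. DESeq2 1.42.0 was an alternative, with other scalings, filters and fits, omission of each library, and a correction of each library for transcript length and GC content, for which 97.4% of tested genes had values. SE was the fold change divided by the square root of F, and 95% intervals used the normal quantile. Lengths came from the longest GENCODE M21 transcript of GRCm38, not mm9. The intervals include the spread between libraries. A floor of 3 counts was 0.0902 to 0.138 CPM and covers counting error only.

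All 8 genes and 6 targets are named. Of the lists other than cell type markers, each gene that passed by edgeR is named or, where none passed, that of smallest p. Members and lists were chosen with earlier results of these data known. The test was checked on simulated counts. The replicate numbers were not taken as pairing libraries.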

Additional observations from a re-analysis of the deposited data

Results flagged for a closer look

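In the spermidine group, of 4 libraries, 2 of 15 genes examined had 1 library far from the other 3, by the ratio of its gap to the whole range, where chance gives about 1 in 20. Sohlh2 stood at 6.14 CPM in spermidine replicate 4, against 2.83 to 3.16 CPM in the other 3. Bmp15 stood at 3030 CPM in the same library, against 1494 to 1737 CPM in the other 3. Of the 15 genes, which are the 8 members, the 6 targets and Gtf2a1l, all but Figla, Taf4b and Tbpl2 were highest of the group in that library. Its correlation of expression deviations with GC content was 0.196. The part of that trend in these values was not tested.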

How the results depend on the processing

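Fold changes of the 7 tested members, the 6 targets and Gtf2a1l were recomputed under the alternatives. Of 837 such values, 781 kept their side of the threshold, 24 lost the call, 32 gained it and 0 calls reversed. Apart from DESeq2, the alternatives were not examined for the other named genes, such as Taf3, Nlrp5, Yy1 and Fshr. Of the 781, 30 had the opposite sign, none of them called in either fit, among them Taf4b for spermidine minus aged (0.592 without aged replicate 1, against -0.015) and, without spermidine replicate 4, Nobox for spermidine minus young (-0.182, against 0.110). Over all genes, aged minus young gave 1179 calls with a filter of 10 CPM in 3 libraries, 2570 without aged replicate 1 and spermidine replicate 1, against 2189, and 827 to 2362 with 1 library left out. Spermidine minus aged gave 259 with total count scaling, 1355 with DESeq2, 124 with only the 2 groups fitted and 99 to 1127 with 1 library left out, against 598. Length and GC correction split its calls into 303 higher and 503 lower, against 298 and 300. Spermidine minus young gave 273 with the stricter filter, 1073 with DESeq2 and 283 to 874 with 1 library left out, against 660. Members called were 1 to 5 with 1 library left out in each comparison with aged oocytes, 6 for aged minus young without aged replicate 1 and spermidine replicate 1, and 1 for spermidine minus aged with only the 2 groups or with length and GC correction. Targets called for aged minus young, against 0, were 2 each with total count scaling, only the 2 groups, or length and GC correction, 1 without aged replicate 1 and spermidine replicate 1, and 0 to 1 with 1 library left out. For spermidine minus aged they were 0 to 2 with 1 library left out. Causes were not tested. Sohlh2 gave no value under the stricter filter.

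Same-numbered libraries did not as a rule deviate together (r from -0.275 to 0.408 over 9 pairs, 3 over 0.1), and 4 of 9 were nearest their own number. The highest r, 0.408, was between spermidine replicate 1 and aged replicate 1. The fit with a replicate block used the 9 libraries numbered 1 to 3, so it left out spermidine replicate 4. In it spermidine minus aged gave 996 calls, with 5 members and 2 targets, and aged minus young gave 1 target. Omission of spermidine replicate 4 with no block gave 1127 calls, 5 members and 2 targets for spermidine minus aged. It also gave 1 target for aged minus young, so the part of the block was not told apart from that of the omission. With counts of 3 to 18, Sohlh1 could not be tested at this depth.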

Other observations

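Among 18 tested genes for other oocyte and early embryo transcription factors, Yy1, a zinc finger factor, was the 1 that passed by edgeR. It averaged 2.82 CPM with spermidine, 2.28 CPM in aged and 0.918 CPM in young oocytes, with log2 fold changes of 1.304 for aged minus young (SE 0.35, edgeR adjusted p = 0.0249) and 1.61 for spermidine minus young (SE 0.33, edgeR adjusted p = 0.0143). No gene fell by edgeR in either, where 17.8% and 5.36% of all tested genes passed. DESeq2 called 3 for aged minus young and 2 for spermidine minus young, Obox5 being lower in both (-0.61 and -0.65, adjusted p = 0.0279 and 0.0227). For spermidine minus aged edgeR called 0 of 18 and DESeq2 1, with 3 at an unadjusted p under 0.05, the first being Stat3 (-0.45, SE 0.14, edgeR adjusted p = 0.0847). The medians of the list were -0.12, 0.00 and -0.01 for aged minus young, spermidine minus young and spermidine minus aged.

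Ranked by profile among 5281 other genes of at least 10 CPM, Zp1 was number 5 and Lhx8 number 17 in nearness to Nobox, with root mean square differences of 0.135 and 0.173. The other targets ranked from 288 (Zp2) to 951 (Fgf8), with Zp3 at 545. For Figla, Zp1 was number 5115 and the other targets ranked from 2674 (Zp3) to 4997 (Fgf8). The profiles are without the correction for length and GC content. These ranks were chosen for mention after their values were seen.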
